A study of Rattus norvegicus with 8 samples.

Results

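The choroid plexus epithelium, which makes cerebrospinal fluid, was followed here through 8 genes known for their expression in it: Ttr, Folr1, Kl, Clic6, Otx2, Prlr, Aqp1 and Enpp2. All rows with one of these symbols were taken from the authors' deposited table of hippocampal transcripts, which gave 9 transcripts of 7 genes among 16266 transcripts of 13272 gene symbols. Otx2, a homeodomain transcription factor of the choroid plexus, has no row under its symbol and was not analysed here.

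The table compares whole hippocampi of adrenalectomized (ADX) rats, 4 infused with vehicle (0.45% saline) and 4 with 0.75 mg/mL corticosterone (CORT) carried in 2-hydroxypropyl-β-cyclodextrin. All 8 rats had lost both adrenal glands, had drunk corticosterone in saline during recovery, and had been moved to saline alone before the experiment. The infusion lasted 30 min at zeitgeber time (ZT, hours after lights on) 2, and the series title places collection 2 h after corticosterone. The labels describe Sprague-Dawley rats aged 3-4 months, whereas the study's methods name adult male Lister hooded rats and give a younger age, in weeks. The table holds 1 level per group and transcript, in FPKM (fragment counts adjusted for transcript length and sequencing depth), so no value of a single rat, no spread and no test between groups stands behind the differences below. Each difference is the log2 ratio of the CORT over the vehicle FPKM, without a pseudocount. The table carries no read totals, and the study's methods give only an approximate total for a lane that several samples shared, so the depth of each library is not known here.

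The choroid plexus is a fringe of vessels covered by a single sheet of epithelium that hangs in the brain ventricles, and in the lateral ventricle it lies against the hippocampus. Its cells move ions and water into the ventricle, carry hormones, folate and other nutrients across from blood, and secrete proteins into the fluid. Glucocorticoid hormones act through the glucocorticoid receptor, which binds short palindromic motifs in DNA, and the epithelium is one of the tissues that can respond to them.

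Promoter sequences were in the reference for 4 of the 8 genes, with 5 windows, since Prlr has 2 start sites there. Of these, the windows of Ttr (the most abundant member), of Aqp1 and of the second Prlr start are shown. Aqp1 had the transcript furthest apart between the groups among member transcripts with at least 1 FPKM in both. Each window is shown as the 250 bases before the start site, 5′ to 3′ on the plus strand, from RefSeq on GRCr8. Capitals mark AGAACA, an arm of the glucocorticoid receptor motif.
Ttr, chr18:12218508-12218757: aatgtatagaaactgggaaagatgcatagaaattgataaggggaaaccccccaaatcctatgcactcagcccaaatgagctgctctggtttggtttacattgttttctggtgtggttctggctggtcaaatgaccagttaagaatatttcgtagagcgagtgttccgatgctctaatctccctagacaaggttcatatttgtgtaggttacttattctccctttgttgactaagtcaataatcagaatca
Aqp1, chr4:85812534-85812783: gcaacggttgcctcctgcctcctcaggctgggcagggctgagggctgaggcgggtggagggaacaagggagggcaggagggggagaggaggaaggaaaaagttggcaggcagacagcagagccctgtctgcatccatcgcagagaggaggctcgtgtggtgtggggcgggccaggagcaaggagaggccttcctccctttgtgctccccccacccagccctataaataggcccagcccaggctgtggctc
Prlr, chr2:60909409-60909658: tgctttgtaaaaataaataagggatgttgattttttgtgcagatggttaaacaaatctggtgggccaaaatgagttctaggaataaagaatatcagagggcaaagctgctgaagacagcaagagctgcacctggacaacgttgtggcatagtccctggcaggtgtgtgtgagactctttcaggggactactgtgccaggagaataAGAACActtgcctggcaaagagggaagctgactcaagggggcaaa

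Each window was searched over its full length, 250 bases before to 50 after the start, on both strands. AGAACA was in 1 of the 5 windows, that of the second Prlr start, where it begins 45 bases upstream. Of all 33469 promoters, 20.7% hold it. ACANNNTGT, the core of the palindromic motif, was in 0 of the 5 windows and in 6.86% of all promoters. TAATCC, which is bound by OTX2 and related homeodomain proteins, was also in 0 of the 5 windows, against 7.17% of all promoters. The 2 Prlr starts could not be matched to the 2 Prlr transcripts below, whose coordinates are on another build (rn6).

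Ttr encodes transthyretin, the carrier of thyroxine and of retinol-binding protein, which the choroid plexus secretes in large amounts. On chromosome 18 of rn6 (15532962 to 15540177), it was at 6605 FPKM with vehicle against 6598 FPKM with CORT. It ranked 5 of 16266 transcripts by level with vehicle and 6 with CORT. The log2 ratio was -0.0015, and 0.689% of all transcripts had one closer to 0. In such bulk samples, fewer or more cells of a type and less or more RNA per cell cannot be told apart.

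The receptors among the members were far lower in level. Folr1, the folate receptor through which the epithelium carries folate into the ventricle, lies on chromosome 1 (166934459 to 166943592). It was at 44.1 FPKM with vehicle against 42.7 FPKM with CORT, a log2 ratio of -0.05. Kl encodes klotho, a co-receptor for fibroblast growth factor 23 that neurons also express, and lies on chromosome 12 (943005 to 987551). Its level was 15.9 FPKM with vehicle against 16.6 FPKM with CORT, a log2 ratio of 0.06. The group values thus stood 1.03-fold apart for Folr1 and 1.04-fold apart for Kl.

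Prlr, the prolactin receptor, lies on chromosome 2 (60131775 to 60325692) and had 2 transcripts, both near the bottom of the table. One (ENSRNOT00000080974) was at 0.297 FPKM with vehicle against 1.17 FPKM with CORT, 3.92-fold higher. The other (ENSRNOT00000084624) was at 1.10 FPKM with vehicle against 1.09 FPKM with CORT, a log2 ratio of -0.02. The first transcript was the lowest member by level, and only 1.19% of all transcripts had a lower mean. Its log2 ratio of 1.97 went down to 0.74 with a pseudocount of 1 FPKM, and with both transcripts summed Prlr was at 1.40 FPKM with vehicle against 2.26 FPKM with CORT, a log2 ratio of 0.69. The higher of the 2 group values was about 0.8 FPKM or more in every row of the table. A transcript listed at 0.297 FPKM with vehicle thus has a higher CORT value. This minimum was observed in the values, and the study's methods state the filter as an alignment count instead. How the authors' tool divided the reads of this gene between its transcripts was not tested.

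The channel genes Aqp1 and Clic6 differed from each other in direction. Aqp1 encodes the water channel aquaporin-1 of the apical membrane and lies on chromosome 4 (85551501 to 85569360). It was at 22.2 FPKM with vehicle against 17.1 FPKM with CORT, 1.30-fold lower, and its log2 ratio of -0.38 was the lowest of the 9 transcripts. Of all transcripts, 83.5% had a log2 ratio closer to 0 than that of Aqp1. Clic6, a chloride intracellular channel protein on chromosome 11 (32655615 to 32699382), was at 31.9 FPKM with vehicle against 35.0 FPKM with CORT, a log2 ratio of 0.13.

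Enpp2 encodes autotaxin, the secreted enzyme that makes lysophosphatidic acid, and oligodendrocytes express it as well as the choroid plexus. It lies on chromosome 7 (94480395 to 94563001) and had 2 transcripts, both somewhat lower with CORT. The more abundant (ENSRNOT00000005561) was at 206 FPKM with vehicle against 184 FPKM with CORT, and the other (ENSRNOT00000051139) at 96.1 and 87.3 FPKM. Their log2 ratios were -0.16 and -0.14. For 21 transcripts of 13 oligodendrocyte genes, the median log2 ratio was -0.22, with 16 below 0; the part of these cells in the values of Enpp2 was not tested.

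**Figure D1:**
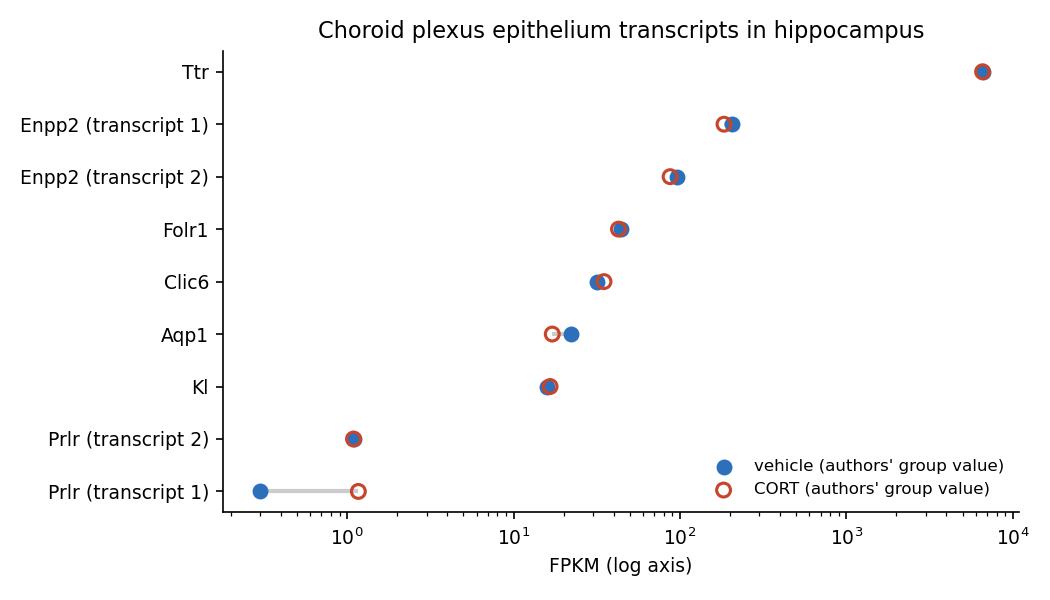
FPKM of the 9 member transcripts (log axis), with filled circles for the authors' vehicle value, open circles for the authors' CORT value and a grey line between them. The circles overlap for all but Aqp1 and the first Prlr transcript, whose line runs from 0.297 to 1.17 FPKM.

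Read over all members, 0 of the 9 transcripts were at least 1.5-fold lower in the CORT group, against 4.91% of all 16266 transcripts. At least 1.5-fold higher was 1 of the 9, the first Prlr transcript, against 4.21% of all transcripts. As said above, no transcript that low with vehicle is listed without a higher CORT value. With at least 1 FPKM in both groups, 0 of 8 member transcripts were that far higher, against 2.51% of all transcripts left. Of the 9 log2 ratios, 6 were below 0, and of all transcripts 45.0% were. The median log2 ratio of the members was -0.02, beside 0.02 over all transcripts, whose quartiles were -0.11 and 0.14. Ttr, Folr1, Kl, the second Prlr transcript and Clic6 stood between those quartiles. The rule that chose the members used no measured value, but the list was drawn up when results of these data were known.

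The size of a ratio depended on the level of the transcript. Of the 832 transcripts with a mean under 1 FPKM, where the first Prlr transcript stood, 48.7% were at least 1.5-fold apart in either direction. It was 11.6% of the 7615 transcripts between 1 and 10 FPKM, and 2.38% of the 6895 between 10 and 100 FPKM, the range of Kl, Aqp1, Clic6, Folr1 and the second Enpp2 transcript. Of the 924 transcripts at 100 FPKM or more, where Ttr and the first Enpp2 transcript stood, 3.14% were that far apart.

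**Figure D2:**
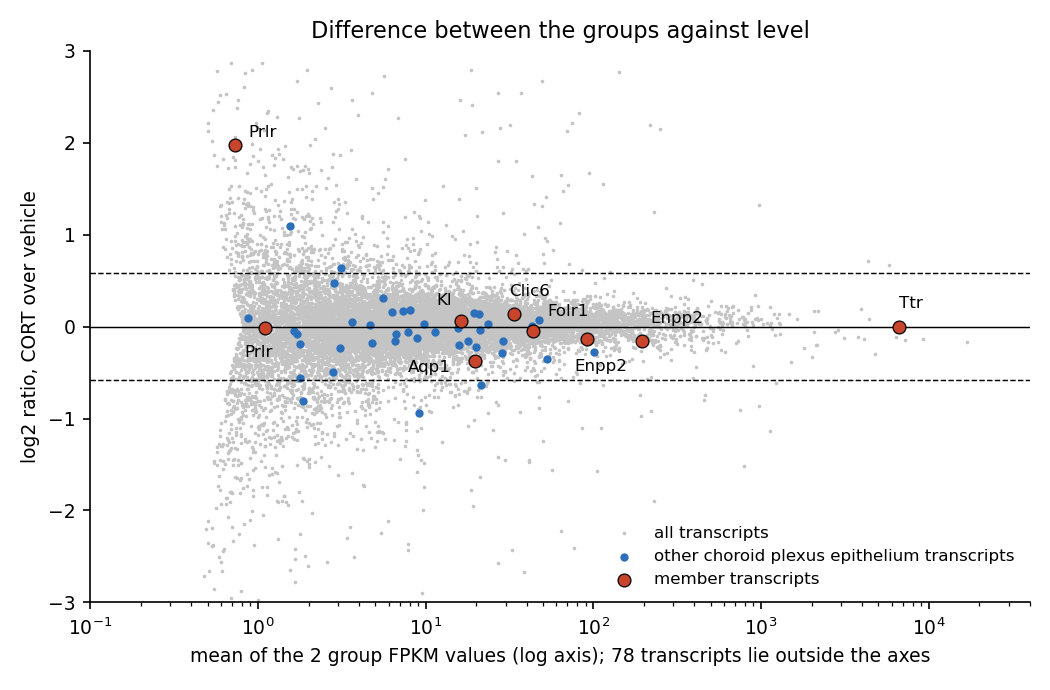
Log2 ratio of the CORT over the vehicle FPKM against the mean of both group values (log axis), for all transcripts (grey), other choroid plexus epithelium transcripts (blue) and members (red), with dashed lines at a 1.5-fold difference. Of the members, 8 stand between the dashed lines and the first Prlr transcript stands at 1.97; 78 grey points lie outside the axes.

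Since FPKM is scaled by transcript length, the members can be set against each other. With the transcripts of a gene summed, the members came to 7022 FPKM with vehicle against 6983 FPKM with CORT. Ttr made up 94.1% of that sum with vehicle and 94.5% with CORT, and Enpp2 made up 4.30% and 3.89%. The level of Ttr was 150 times that of Folr1 with vehicle and 154 times with CORT. Over Clic6 the factor was 207 with vehicle and 189 with CORT, and over Kl it was 414 and 398. The factor over Aqp1 differed most of the genes above 10 FPKM, at 298 with vehicle and 386 with CORT. The order by level, Ttr, Enpp2, Folr1, Clic6, Aqp1, Kl and Prlr, was the same in both groups, although Aqp1 (17.1 FPKM) and Kl (16.6 FPKM) stood close together with CORT. Without a spread between rats, it cannot be said which neighbours in this order differ.

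A further list of 40 genes of the same epithelium, of which 35 have a row, gave 41 transcripts. Of these, 3 were at least 1.5-fold lower with CORT and 2 at least 1.5-fold higher, 7.32% and 4.88% of them, beside the 4.91% and 4.21% of all transcripts. Their median log2 ratio was -0.06, and 24 of the 41 were below 0. The summed level was 658 FPKM with vehicle against 605 FPKM with CORT. Several genes of this list, such as Igf2, Igfbp2 and Slc6a20, are also expressed in the meninges, the membranes around the brain.

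Among 13 genes for ion and solute transport, 12 were within 1.5-fold and the median log2 ratio was -0.06. Kcnj13, a potassium channel of the apical membrane, was at 30.2 FPKM with vehicle against 27.1 FPKM with CORT, a log2 ratio of -0.16. Car12, a carbonic anhydrase, was at 46.0 and 48.1 FPKM, a log2 ratio of 0.07. The exception was Slc6a20, a proline transporter, which was at 12.0 FPKM with vehicle against 6.22 FPKM with CORT, 1.92-fold lower.

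The secreted proteins, 11 transcripts of 7 genes, had a median log2 ratio of -0.29. Igfbp2, a binding protein of insulin-like growth factors, was at 110 FPKM with vehicle against 91.1 FPKM with CORT, a log2 ratio of -0.28. Igf2, the growth factor itself, had log2 ratios of -0.35 and -0.56 for its 2 transcripts, the more abundant at 59.0 and 46.3 FPKM. Past the fold of 1.5 on the lower side were Rbp4 and Cp. Rbp4, the retinol-binding protein that transthyretin carries, was at 26.1 FPKM with vehicle against 16.8 FPKM with CORT, 1.55-fold lower. Cp, the copper protein ceruloplasmin, was 1.75-fold lower in a transcript at 2.37 and 1.35 FPKM, and its other transcript had a log2 ratio of -0.49.

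On the higher side stood a minor transcript each of F5 and Wfdc2. For F5, coagulation factor V, that transcript was at 0.983 FPKM with vehicle against 2.10 FPKM with CORT, while the main one was at 9.65 and 9.83 FPKM. For Wfdc2, a secreted protein with a whey acidic protein domain, it was at 2.43 and 3.78 FPKM, while the main one was at 6.85 and 6.47 FPKM. The main transcripts of both genes thus stood near a ratio of 1.

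The 10 transcripts of genes for junctions and cytoskeleton were all within 1.5-fold, with log2 ratios between -0.18 and 0.47. The main transcript of Spint2, a protease inhibitor of epithelial membranes, was at 42.9 FPKM with vehicle against 43.0 FPKM with CORT. The 7 other epithelial genes lay between -0.19 and 0.18. They include Htr2c, a serotonin receptor that the choroid plexus shares with neurons, at 31.5 FPKM with vehicle against 34.7 FPKM with CORT.

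Genes of blood and of tissue that borders the hippocampus or the plexus were lower with CORT in several lists. For meningeal fibroblasts, 10 of 12 listed genes have a row, with 10 transcripts. Of these, 8 were at least 1.5-fold lower, with a median log2 ratio of -1.20 and summed levels of 79.1 FPKM with vehicle against 47.5 FPKM with CORT. A transcript among the 8 was at 1.38 FPKM with vehicle against 0.470 FPKM with CORT, so the minimum described for Prlr applies to it too. Over all transcripts, 4.91% were that far lower and 4.21% that far higher, the shares to set beside this and the following list counts. Between 1 and 10 FPKM, where most meningeal transcripts stood, 11.6% were that far apart in either direction. Crabp2, a retinoic acid binding protein, was at 10.4 and 4.78 FPKM, whereas the matrix gene Dcn was at 18.8 and 20.0 FPKM. All 3 blood transcripts, from 3 of 7 listed genes, were at least 1.5-fold lower, among them the globins Hba1 (583 and 347 FPKM) and Hbb (580 and 334 FPKM), whose near-identical copies make their values uncertain. The part of these tissues in the values of Slc6a20, Rbp4, Cp and Igf2 was not tested.

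Of 10 transcripts from thalamus and habenula genes, 7 were at least 1.5-fold lower and 1 at least 1.5-fold higher, with a median log2 ratio of -0.87 and sums of 53.1 and 32.4 FPKM. Ramp3, a receptor accessory protein, was at 9.89 FPKM with vehicle against 7.59 FPKM with CORT. Prkcd, a protein kinase C, was at 10.7 and 4.53 FPKM in its main transcript, and its minor one was the 1 that was higher, at 0.184 and 1.60 FPKM. Only 2 of 8 pineal genes have a row: Tph1, the first enzyme of serotonin synthesis, was at 5.17 FPKM with vehicle against 0.102 FPKM with CORT, and Gngt1, a transducin subunit, at 3.45 and 0.158 FPKM. The higher group value is about 0.8 FPKM or more in every row. As with Prlr, a listed transcript under that minimum in 1 group thus has a higher value in the other. Tph1 and Gngt1 with CORT and the minor Prkcd transcript with vehicle were that low, so their direction is not independent of that minimum. Their values in the other group were above it, and the minimum does not fix how far apart the groups are. The same holds for some of the 7 lower thalamus and habenula transcripts.

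Closer to the plexus, the 12 ependymal transcripts had a median log2 ratio of -0.27, with 0 at least 1.5-fold lower, 1 at least 1.5-fold higher, and sums of 104 and 86.4 FPKM. Rarres2, the chemoattractant chemerin, was at 53.6 and 43.7 FPKM, and Dynlrb2, a dynein light chain of cilia, at 15.2 and 11.3 FPKM. Of 3 genes listed for fenestrated capillaries, 2 have a row. Plvap, which forms the diaphragms of such vessels, was at 1.47 FPKM with vehicle against 1.23 FPKM with CORT, and Rspo3, a Wnt signalling enhancer, at 6.06 and 6.93 FPKM. Whether the Rspo3 values came from such vessels was not tested. Listed markers without a row were not analysed here, and no value in the table is 0.

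For comparison within the hippocampus itself, 7 transcripts of excitatory neuron genes had a median log2 ratio of 0.11, with 0 lower and 1 higher by at least 1.5-fold, and sums of 2711 and 2959 FPKM. Nrgn, a calmodulin-binding protein of dendrites, was at 1137 and 1254 FPKM, and Slc17a7, a vesicular glutamate transporter, at 736 and 794 FPKM. The oligodendrocyte sums were 7987 and 6600 FPKM, with 1 transcript lower and 1 higher by at least 1.5-fold. Mbp, a myelin protein, had its main transcript at 2226 and 1772 FPKM. Of 12 transcripts of glucocorticoid target genes, 11 were at least 1.5-fold higher with CORT, with a median log2 ratio of 0.91 and sums of 201 and 383 FPKM. Of all transcripts, 4.21% were that far higher. This list was drawn up with results of these data known, so its count is no independent reference for the members. Ddit4, an inhibitor of growth signalling, was at 41.5 FPKM with vehicle against 73.9 FPKM with CORT, and Tsc22d3, a leucine zipper protein, at 36.5 and 69.6 FPKM in its main transcript.

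The values of Ttr, Folr1 and Kl are those of whole groups, and whether the share of choroid plexus tissue differed between single rats was not tested.

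**Figure D3:**
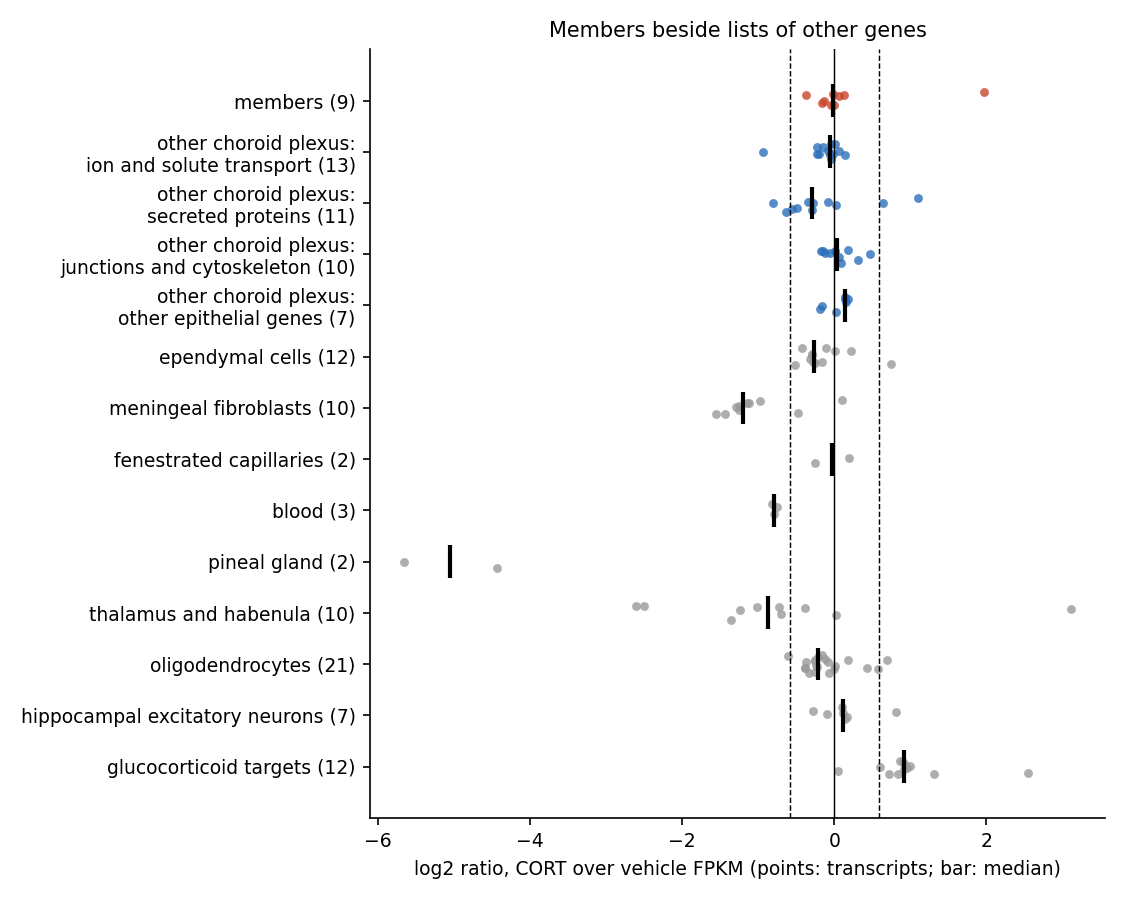
Log2 ratio of the CORT over the vehicle FPKM for each transcript (points) and its median (black bar), by list with the number of transcripts in brackets; dashed lines mark a 1.5-fold difference. The members' median is -0.02, against -1.20 for meningeal fibroblast genes and 0.91 for glucocorticoid targets. The lists were chosen with results of these data known.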

How the data were processed

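RNAseq was performed on whole hippocampi of 8 ADX rats, 4 per group, from stranded total RNA libraries. Per the labels, CASAVA 1.8.2, TopHat2 2.0.10 and Cuffdiff 2.2.0 were used on rn6. The authors combined the rats of a group into 1 deposited FPKM value per transcript, with geometric normalization between libraries, corrections for multi-mapped reads, sequence bias and effective length, and removal of transcripts with too few alignments. The log2 fold changes, test statistics, p-values and q-values deposited beside the FPKM values are the authors' own comparison and were not used.

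Computed here, with Python 3.11.15, numpy 2.4.6, pandas 2.3.3 and matplotlib 3.10.9, were log2 ratios without a pseudocount, counts past a 1.5-fold difference and medians, checked on simulated data. No test was run. Groups were taken from the treatment label. Markers were matched by exact symbol. Named were all members, the other choroid plexus genes past 1.5-fold with at least 1 FPKM in one group or among the 6 highest, and the 2 highest of each further list, of which 1 gene is not reported here. Members and lists were chosen with earlier results of these data known. Alternatives covered pseudocounts, filters, folds, summed transcripts and centring. Promoters came from RefSeq (GRCr8).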

Additional observations from a re-analysis of the deposited data

How the results depend on the processing

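A log2 value was taken as moved when it changed by over 0.1, a share by over 1 percentage point, and a count by over 1.5 times. The median log2 ratios of the members (-0.02) and of the other choroid plexus genes (-0.06) did not move under pseudocounts of 0.1 and 1 FPKM, summed transcripts, centring on the median of 0.02, or when transcripts under 1 FPKM in both groups were left out. With a threshold ratio of 5 to 4 in place of 1.5, 1 member transcript (Aqp1) and 6 of 41 other choroid plexus transcripts (14.6%) were lower with CORT, beside 1757 of all 16266 (10.8%), and 1 member and 3 others (7.32%) were higher, beside 1551 (9.54%). With a fold of 2, 0 of the others were lower and 1 was higher, beside 331 (2.03%) and 312 (1.92%) of all transcripts. With at least 1 FPKM in both groups, 0 members and 1 other transcript were higher, and of all 15004 transcripts left 431 (2.87%) were lower and 376 (2.51%) higher. With a pseudocount of 1 FPKM 1 other transcript was higher, beside 383 lower (2.35%) and 366 higher (2.25%) of all. With summed transcripts 0 others were higher, beside 498 lower (3.75%) and 235 higher (1.77%) of 13272 genes. The counts over all transcripts, 798 lower (4.91%) and 685 higher (4.21%), thus moved by over 1.5 times under each of these 5 settings. With the highest transcript of each gene, the share of Ttr was 95.4% with vehicle and 95.7% with CORT, and that of Enpp2 2.97% and 2.67%, since Enpp2 then counts 1 of its transcripts. Among single members only Prlr moved, to log2 ratios of 1.67 and 0.74 for its first transcript with pseudocounts of 0.1 and 1 FPKM, and to 0.69 summed.

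No paired analysis was possible because each group has a single column. Leaving out each rat was not possible for the same reason, and without the depth of each library no limit of detection can be given.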
